A study of Arabidopsis thaliana with 4 samples.

Results

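The genes described here are the 29 Aux/IAA genes of Arabidopsis thaliana and 6 genes of the GH3 family, GH3.1 to GH3.6. They were taken by locus from a list of 35 drawn up by gene family; no signal threshold picked them, although earlier results of these data were known when the families were chosen. Of these, 32 had at least 1 probe on the array, out of 25356 genes with a probe, and 41 probes represented them. No probe was matched to IAA9, IAA15 or IAA32, which were not analysed here.

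Aux/IAA proteins are short-lived nuclear repressors of the auxin response. They bind auxin response factors (ARFs), DNA-binding proteins of the pathway, and hold those that they bind silent through the co-repressor TOPLESS. Auxin joins an Aux/IAA protein to its receptor, the F-box protein TIR1 or a relative, and so marks the repressor for destruction. Many Aux/IAA genes and several GH3 genes are themselves switched on by auxin within a short time, which makes them common reporters of the response, and the auxin-linked GH3 enzymes join indole-3-acetic acid (IAA, the main natural auxin) to amino acids and so lower the free hormone.

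Total RNA of whole seedlings was hybridized to 4 one-colour Agilent arrays, 2 per genotype, to ask which genes of the osmotic stress pathway differ in the mutant ced2. The wild type (WT) was a transgenic line in the gl1-Col0 background that carries NCED3pro:LUC, a luciferase reporter driven by the promoter of NCED3, a gene of abscisic acid synthesis. The ced2 plants are labelled as the ced2 mutant in the same gl1-Col0 background, and the labels do not name the mutated gene. All seedlings were 14 d old and all had spent 6 h in 40% polyethylene glycol (PEG), which draws water from tissues, so no array shows unstressed plants and the values compare genotypes under stress. Each RNA came from 20 pooled plants and the labels call the replicates biological.

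The direction of every difference below rests on the labels of the scanner files, and the authors' value table contradicts them. Across probes, each table column correlated at r = 0.999999 with a scanner file labelled as the opposite genotype, and at -0.573 to -0.369 with its own. Under the labels of the value table each sign would turn. "WT files" and "ced2 files" therefore refer to the scanner files as labelled.

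Signals are log2 values of the scanner's processed signal minus the 75th percentile of the array, which was a signal of 2807 to 4465. At least 73.9% of probes on each array were well above background, and no spot was saturated. Differences are ced2 files minus WT files, tested with limma over 20835 genes, those detected above background by the scanner's flag on the whole of 1 or both groups, and a call is an adjusted p under 0.05 after Benjamini-Hochberg adjustment over all of these genes. Replicates lay very close, with a median absolute log2 difference of 0.0449 within WT and 0.033 within ced2, and 77.9% of all genes tested were called. In whole seedlings, fewer cells of a type and less RNA per cell cannot be told apart. Of 10 root markers, 8 were higher, 1 was lower and 1 did not pass, against 42.4% called higher and 35.6% called lower over all genes tested. Their summed linear signal, as a multiple of the array's 75th percentile, was 2.32 on both WT arrays and 5.53 to 5.55 on the ced2 arrays. The brightest markers weigh most in this sum. The mean of their log2 signals, in which each gene weighs the same, was -3.36 and -3.38 in the WT files. In the ced2 files it was -2.26 and -2.25. IRT1, an iron transporter of the root epidermis, differed by 3.37 and CASP1, which marks the endodermis, by 2.63. The marker that was lower was NRT2.1, by at least 2.21-fold in the processed signal, a bound of the kind explained below for PIN5. NRT2.1 was not well above background on the ced2 arrays and passed the filter only through the WT files. The other 9 were well above background on every array. Of 6 leaf markers, 1 was lower (LHCB1.3, at -0.43; adjusted p = 0.0419) and 5 did not pass, with sums of 636 to 739 in the WT files and 514 to 598 in the ced2 files; their median of -0.25 turned to 0.10 with quantile normalization. Without ced2 replicate 2 or WT replicate 2 that median was -0.1555 or -0.1513. The call of LHCB1.3 was lost without ced2 replicate 2 or either WT array. It was also lost with quantile normalization (-0.03), with normexp background correction, without the filter and with the replicate number as a block. The part of tissue makeup in the differences below was not tested.

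Among the Aux/IAA genes, 15 of the 26 measured were called higher in the ced2 files and 4 lower, and 7 did not pass. Among GH3.1 to GH3.6, 3 were higher, 1 was lower, 1 did not pass and GH3.4 was not well above background on any array. Over all genes tested, 42.4% were called higher and 35.6% lower, so the count of 23 called among 31 members tested (74.2%) lay near the background of 77.9%. Of the 31, 4 (12.9%) rose at least 2-fold and 0 fell that far, against 8.01% and 3.32% of all genes. Among those 4, IAA33 and GH3.1 had dim probes, at 0.63 and 0.19 with the local background subtracted and -0.09 and -0.89 with normexp. The others, IAA5 and IAA19, were at 1.31 and 0.96 with normexp. Of the 31, 27 had groups that did not overlap, against 90.2% of all genes. The median log2 difference was 0.33 over the Aux/IAA genes and 0.78 over the 5 GH3 genes tested, against 0.05 over all genes; with normexp, a model-based background correction, these medians were 0.054, 0.0671 and -0.14. Normexp left 11 Aux/IAA genes higher and 7 lower, and without either ced2 array 2 were lower. All 31 had passed the filter through both groups.

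**Figure D1:**
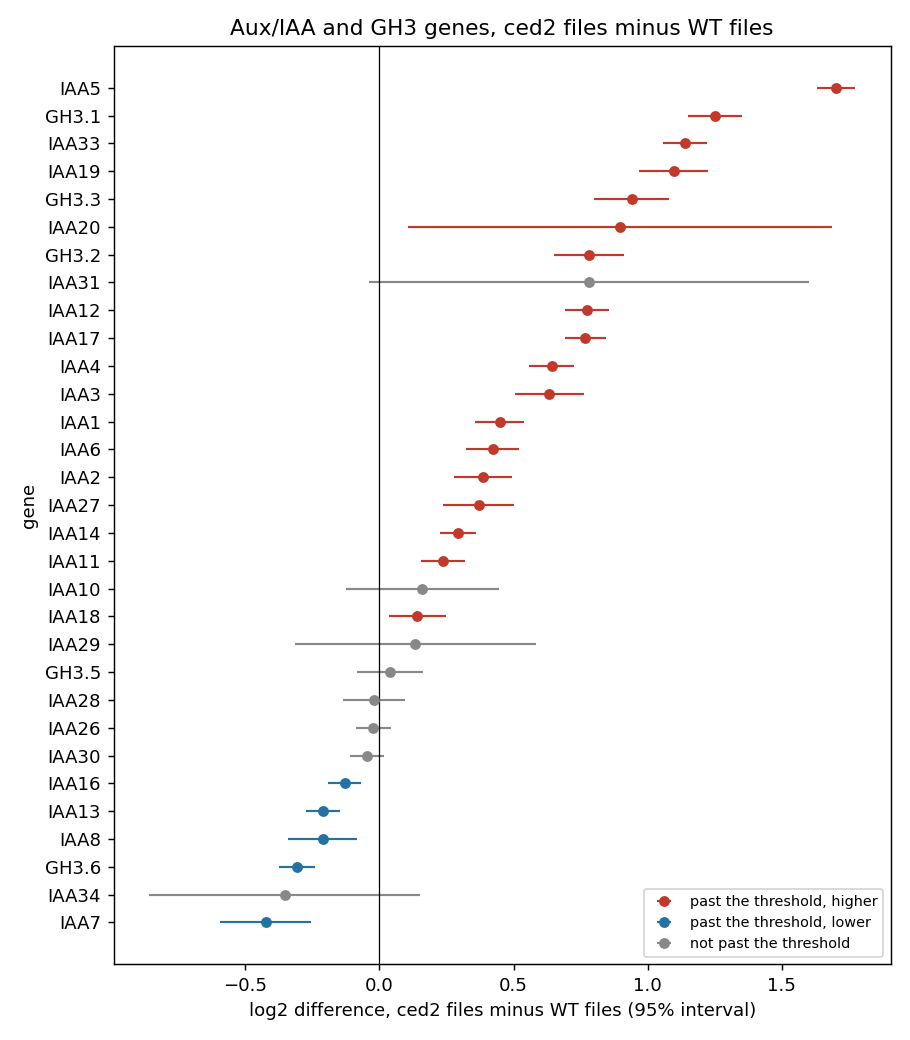
Log2 difference (ced2 files minus WT files, horizontal axis) of the 31 members tested, ordered by size, with limma's 95% interval as bars. Red points passed the threshold and were higher, blue points passed and were lower, and grey points did not pass; IAA5 lies highest at 1.70 and IAA7 lowest at -0.42, and the intervals of IAA20, IAA31, IAA34 and IAA29 are wide.

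**Figure D2:**
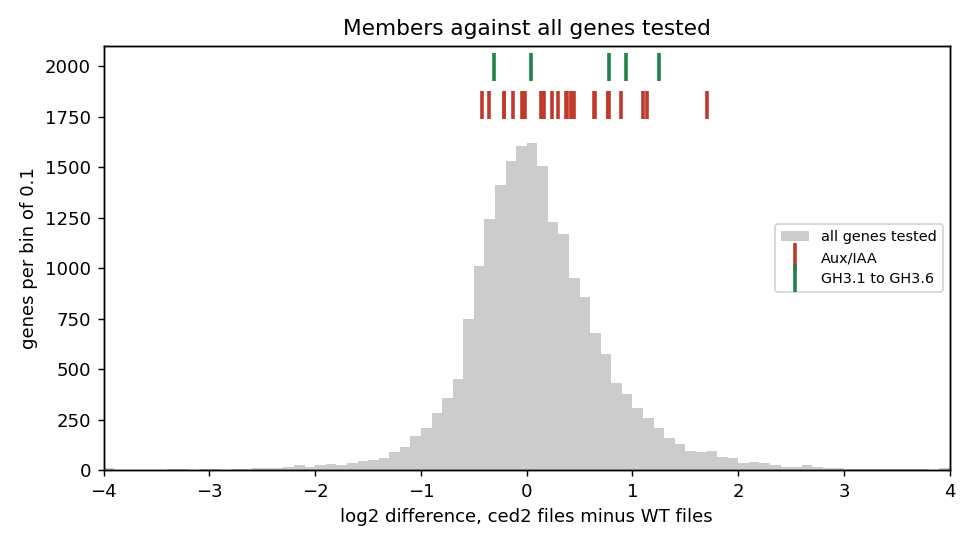
Distribution of the log2 difference over the 20835 genes tested (grey bars, genes per bin of 0.1; genes beyond 4 in either direction are in the end bins) with the Aux/IAA genes (red ticks) and the GH3 genes (green ticks). Most members lie within the bulk of all genes, and IAA5 lies where 2.42% of genes have a larger rise.

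IAA5, IAA6 and IAA19 are close relatives and typical auxin-induced repressors; IAA19, also called MSG2, acts in the bending of the hypocotyl towards light. IAA5 (AT1G15580) had normalised log2 signals of -3.03 and -3.02 in the WT files and of -1.31 and -1.34 in the ced2 files. The groups were far apart beside the gaps between replicates, a difference of 1.70 (SE 0.0241) or 3.26-fold (limma adjusted p = 0.00016), and IAA5 ranked 506 among all genes tested, in descending order. IAA19 (AT3G15540) stood at -1.55 and -1.45 in the WT files and at -0.40 on both ced2 arrays. It rose by 1.10 (SE 0.044), or 2.14-fold (adjusted p = 0.000334). IAA6 (AT1G52830) stood at -4.41 and -4.42 against -3.96 and -4.03. It rose by 0.42 (adjusted p = 0.0013), but was at -0.23 with normexp (adjusted p = 0.0643). All 3 relatives were thus called higher, against 42.4% of all genes tested. The intervals of IAA5 (1.63 to 1.77), IAA19 (0.97 to 1.23) and IAA6 (0.32 to 0.52) did not overlap. The difference between these genes was not tested.

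IAA1 to IAA4 form 2 pairs of near relatives that respond to auxin early, and IAA3, also called SHY2, limits the size of the root meristem. All 4 were called higher, against 42.4% of all genes tested. IAA3 (AT1G04240) went from -1.32 and -1.22 to -0.64 and -0.62, a rise of 0.63, and IAA4 (AT5G43700) rose by almost the same, 0.64, from -0.32 and -0.28 to 0.33 and 0.36. IAA1 (AT4G14560) rose by 0.45, from -1.48 and -1.42 to -1.01 and -0.99, and IAA2 (AT3G23030) by 0.38, from 4.23 and 4.31 to 4.65 and 4.67 (adjusted p between 0.000394 and 0.00209 for these 4 genes). None of these groups overlapped, which was so for 90.2% of all genes tested. A second probe of IAA4, not tested, was at 0.42.

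IAA7, IAA14, IAA16 and IAA17 are another set of close relatives, known from dominant mutants (AXR2 for IAA7, SLR for IAA14, AXR3 for IAA17) that lose gravity responses, root hairs or lateral roots. Of the 4, 2 rose and 2 fell. IAA17 (AT1G04250) stood at 1.78 and 1.82 in the WT files and at 2.58 and 2.56 in the ced2 files. It rose by 0.77 (SE 0.0256; adjusted p = 0.000257), and its second probe, not tested, was at 0.92. IAA7 (AT3G23050) stood at 1.87 and 2.01 in the WT files and at 1.54 and 1.50 in the ced2 files, with no overlap. It fell by 0.42 (SE 0.0574; adjusted p = 0.0053), the lowest value of any member tested, and 82.8% of all genes had a higher difference. Its second probe, much dimmer, was at -0.19. IAA14 (AT4G14550) rose by 0.29 and IAA16 (AT3G04730) fell by 0.13 (adjusted p = 0.00127 and 0.00888). The call of IAA16 was kept under 7 of 12 other settings. Among those that lost it were quantile normalization (-0.02, adjusted p = 0.38) and leaving out either ced2 array. IAA16 was at -0.03 with normexp and at -0.07 with the local background subtracted. The call of IAA14 ended with normexp (0.09, adjusted p = 0.118).

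3 pairs of members are direct neighbours among protein-coding genes in the RefSeq annotation: IAA3 and IAA17 on chromosome 1, IAA2 and IAA7 on chromosome 3, and IAA14 and IAA1 on chromosome 4, with 0 genes between them. In the pair on chromosome 1 both rose, by 0.63 and 0.77, and in the pair on chromosome 4 both rose, by 0.29 and 0.45. In the pair on chromosome 3 the genes went apart, with IAA2 higher by 0.38 (95% interval 0.28 to 0.49) and IAA7 lower by 0.42 (-0.59 to -0.25).

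**Figure D3:**
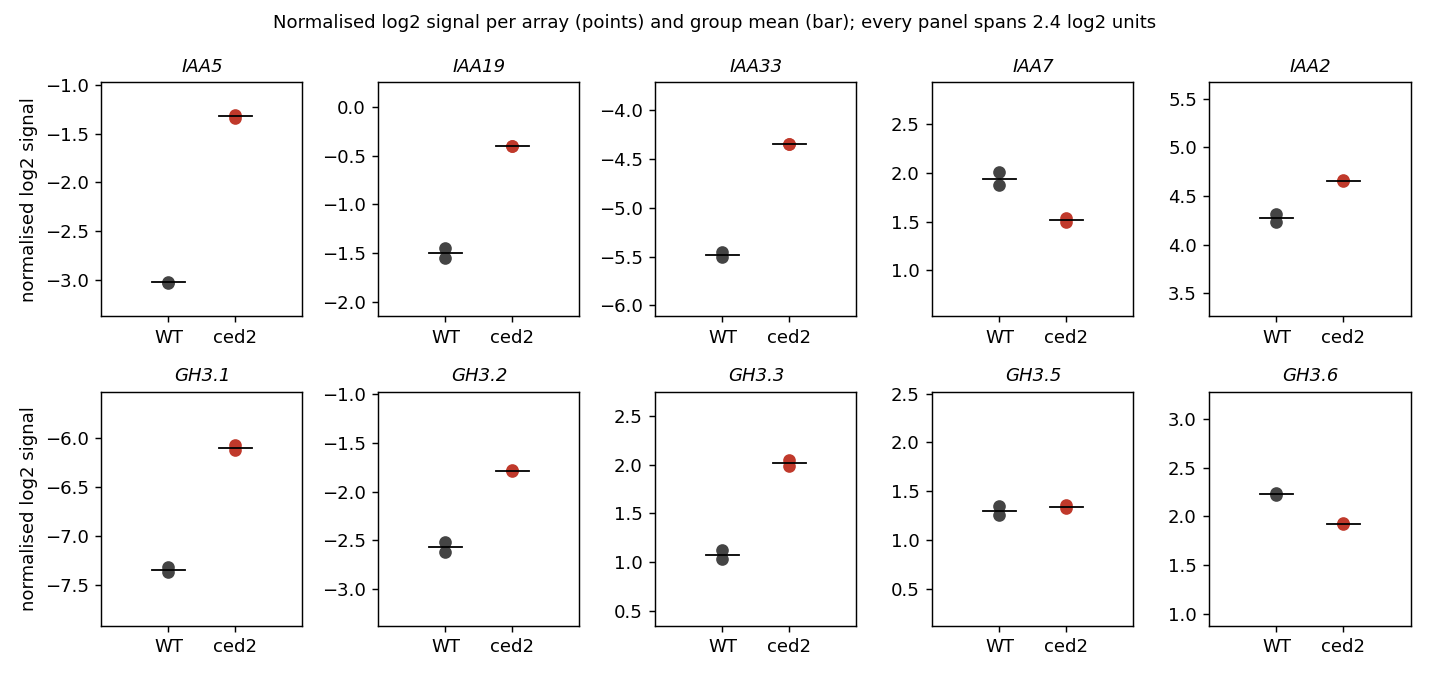
Normalised log2 signal (vertical axis) of 10 members on each array (points; grey WT files, red ced2 files) with the group mean as a bar; every panel spans 2.4 log2 units, and levels are not comparable between panels because each gene has its own probe. IAA2, IAA5, IAA19, IAA33, GH3.1, GH3.2 and GH3.3 are higher in the ced2 files (with normexp IAA33 and GH3.1 turn), IAA7 and GH3.6 are lower, and the groups of GH3.5 overlap.

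IAA12 and IAA13 are sister repressors of the factor ARF5, and IAA12 is also called BDL. IAA12 (AT1G04550) stood at -1.19 and -1.17 in the WT files and at -0.38 and -0.43 in the ced2 files, a rise of 0.77 (SE 0.0279; adjusted p = 0.000288). IAA13 (AT2G33310) fell by 0.21, from 2.62 and 2.63 to 2.41 and 2.42 (SE 0.0215; adjusted p = 0.00248), although its second probe, not well above background on any array, turned the gene's mean over probes to 0.31. The sisters thus went opposite ways in the main setting, with intervals of 0.69 to 0.85 and -0.27 to -0.15.

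The remaining Aux/IAA proteins with a typical degron, the stretch that the receptor binds, differed by at most 0.37. IAA27 (AT4G29080) rose by 0.37 and IAA11 (AT4G28640) by 0.24. IAA8 (AT2G22670), one of the long members of the family, fell by 0.21 (adjusted p = 0.0169), a call lost with quantile normalization (-0.09, adjusted p = 0.0864) and without either ced2 array (adjusted p = 0.089 and 0.0768). IAA18 (AT1G51950) rose by 0.14 (adjusted p = 0.0307), and the 3 probes of this gene ranged from 0.05 to 0.21. The call of IAA18 was kept under 6 of 12 other settings. Among those that lost it were leaving out ced2 replicate 1, ced2 replicate 2 or WT replicate 1. With any 1 array left out, its difference was 0.11 to 0.17. IAA26, IAA28 and IAA10 did not pass. IAA28, a regulator of the first steps of lateral root formation, differed by -0.02 (95% interval -0.13 to 0.10), IAA26 by -0.02 (-0.09 to 0.04) and IAA10 by 0.16 (-0.13 to 0.45). IAA29, which phytochrome-interacting factors switch on in shade, had a dim probe at -5.10 and -5.36 against -4.95 and -5.24, and its groups overlapped (0.13, interval -0.31 to 0.58). With the replicate number as a block, both IAA10 and IAA29 passed (adjusted p = 0.0227 and 0.033).

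IAA20, IAA30, IAA31, IAA33 and IAA34 form a non-canonical set whose proteins lack the degron or carry an altered one, and are therefore more stable than the rest. Most of their probes were dim. IAA33 (AT5G57420) had processed signals of 73.5 and 64.0 in the WT files and of 183.5 and 220.4 in the ced2 files, which gave normalised log2 signals of -5.51 and -5.46 against -4.34 on both ced2 arrays. It rose by 1.14 (SE 0.0283), or 2.20-fold (adjusted p = 0.000192), by 0.63 with the local background subtracted and an offset of 50, but was at -0.09 with normexp. IAA20 (AT2G46990) stood at -7.27 and -6.57 in the WT files and at -6.03 and -6.02 in the ced2 files. Its WT arrays lay 0.707 apart, and its rise of 0.90 passed narrowly (SE 0.269; adjusted p = 0.0461). Of 12 other settings, 4 kept the call; it was lost without either ced2 array (adjusted p = 0.155 and 0.14), the value was 0.54 without WT replicate 1, and it was -0.93 with normexp.

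IAA31 (AT3G17600) stood at -5.82 and -6.46 against -5.18 and -5.54, groups that did not overlap, and its difference of 0.78 did not pass (95% interval -0.04 to 1.60, adjusted p = 0.071). It passed with the replicate number as a block (adjusted p = 0.0139). Leaving out 1 array gave 0.46 (without WT replicate 2) to 1.10 (without WT replicate 1), and normexp gave -0.66. IAA34 (AT1G15050) was at -0.35 (-0.86 to 0.15, adjusted p = 0.139), from -4.22 and -4.66 to -4.78 and -4.81. The WT arrays lay far apart beside the ced2 arrays, and the value was -0.58 without WT replicate 2 and -0.13 without WT replicate 1. With normexp it was at -0.90 and passed (adjusted p = 0.000533). IAA30 (AT3G62100), the brightest probe of the set, was at -0.39 and -0.38 against -0.43 on both ced2 arrays and did not pass (-0.05, interval -0.11 to 0.02).

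The GH3 members conjugate IAA and differed from one another. GH3.3 (AT2G23170), one of the most auxin-responsive of these enzymes, stood at 1.12 and 1.03 in the WT files and at 2.05 and 1.99 in the ced2 files. The groups did not overlap, and the gene rose by 0.94 (SE 0.0479), or 1.92-fold (adjusted p = 0.0005). GH3.2 (AT4G37390), known from the dwarf mutant ydk1, went from -2.52 and -2.62 to -1.79 and -1.78, a rise of 0.78 (SE 0.0437; adjusted p = 0.0006). GH3.1 (AT2G14960) had processed signals of 20.8 and 17.0 in the WT files and of 53.4 and 66.5 in the ced2 files, the faintest of the members tested. Its normalised log2 signal rose from -7.33 and -7.37 to -6.12 and -6.07, by 1.25 (SE 0.034; adjusted p = 0.000207). That size belongs to the processed signal: the difference was 0.19 (adjusted p = 0.0639) with the local background subtracted and an offset of 50, and -0.89 with normexp.

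GH3.5 and GH3.6 are sisters. GH3.5 (WES1, AT4G27260) also acts on salicylate, and its signals were 1.25 and 1.34 in the WT files and 1.32 and 1.36 in the ced2 files. These groups overlapped, and the difference was 0.04 (95% interval -0.08 to 0.16; adjusted p = 0.427), with 0.05 at its second probe and -0.0049 without WT replicate 1. GH3.6 (DFL1, AT5G54510), whose overexpression in the mutant dfl1 shortens shoot cells, fell by 0.31 (SE 0.0228; adjusted p = 0.00111), from 2.24 and 2.22 to 1.93 and 1.92. GH3.4 (AT1G59500) had processed signals between 2.3 and 5.2 and was not well above background on any array, so no fold is given. GH3.2 and GH3.3 thus rose while GH3.6 fell, and none of these 3 changed direction or call under any of the 12 other settings. All 12 kept the labels of the scanner files.

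Of the 18 members called higher, 12 kept their direction and call under all 12 other settings applied to single genes, and so did 2 of the 5 called lower. The 12 were IAA1, IAA2, IAA3, IAA4, IAA5, IAA11, IAA12, IAA17, IAA19, IAA27, GH3.2 and GH3.3, and the other two were IAA7 and GH3.6. All 12 settings kept the labels of the scanner files, and under those of the value table each sign would turn. The values of the processings lay furthest apart at dim probes. Calls were also lost at bright ones, where IAA8, IAA16 and IAA18 kept theirs under 9, 7 and 6 of the 12 settings. Normexp estimated a background mean of -83.4 and -98.5 for the WT arrays but of 6.00 and 5.10 for the ced2 arrays, so that it added to each faint WT spot a signal that it did not add to the ced2 spots. With the same spot intensities minus the local background and the same offset, 1 member reversed, against 7 with normexp.

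**Figure D4:**
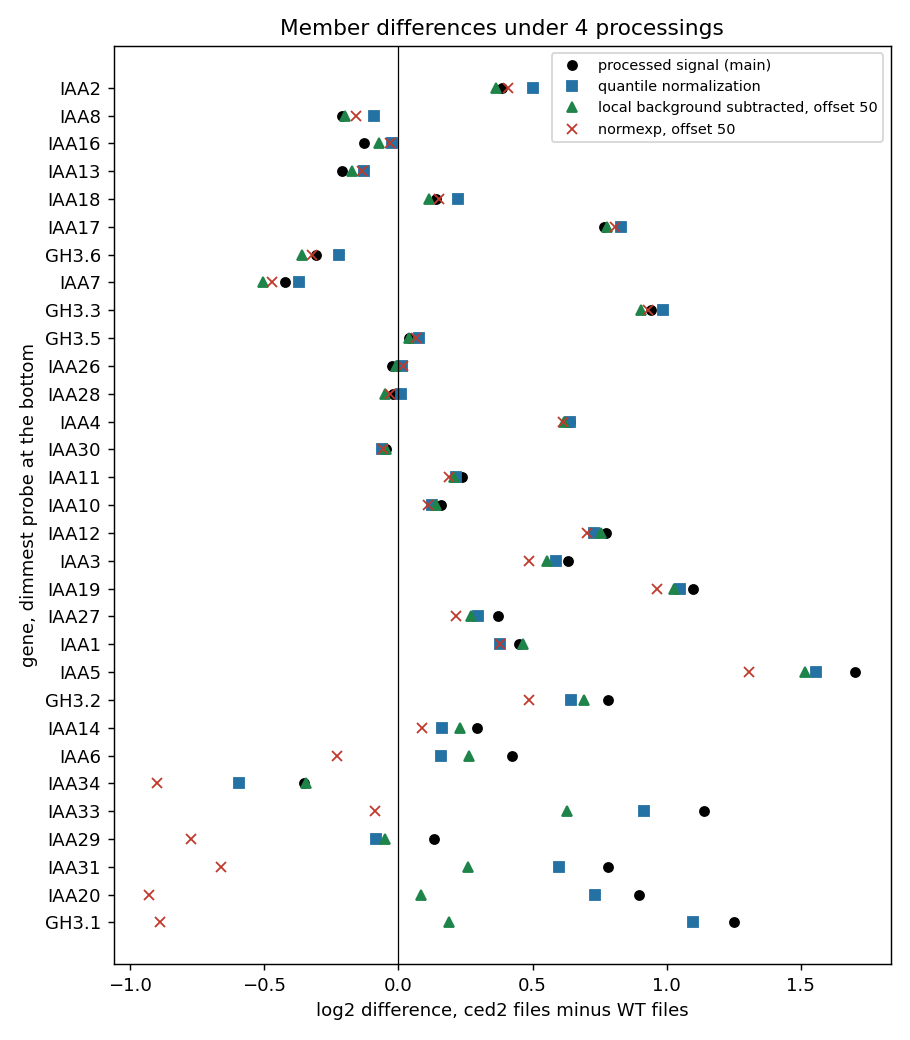
Log2 difference (ced2 files minus WT files, horizontal axis) of each member tested under 4 processings, with genes ordered by mean normalised signal and the dimmest probe at the bottom. The 4 values of bright probes lie close together, and those of the 7 lowest genes spread, with the red crosses of normexp furthest to the left in all 7.

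Around these genes, the rest of the pathway was described by lists of its parts, whose counts stand beside shares of 42.4% called higher and 35.6% called lower over all genes. Of the receptors, TIR1 and its 5 relatives, 1 was higher (AFB1, by 0.19), 1 was lower (AFB4, at -0.10) and 4 did not pass, with a median of 0.03 that turned without WT replicate 1 (-0.0215) and without ced2 replicate 2 (-0.0038). Both receptor calls were lost without either ced2 array and with normexp. Most of the ARFs listed were lower. Among the 5 that activate transcription, 4 fell and 1 rose, with a median of -0.48. ARF7 and ARF19, which drive lateral root formation, fell by 0.52 and 0.50, ARF6 fell by 0.48, and ARF5 was the one that rose, by 0.14, a call lost without WT replicate 2, without either ced2 array and with the replicate block. Of 10 other ARFs, 7 fell, 1 rose and 2 did not pass, with a median of -0.26 and the lowest value at ARF11, which fell by 1.44 (adjusted p = 0.000782). ARF2 and ARF10 fell by 0.52 and 0.51. Of TOPLESS (TPL) and its 4 relatives, 3 fell and 2 did not pass, with TPR4 at -0.31, TPL at -0.24 and TPR2 at -0.18 (limma adjusted p = 0.0249 for TPR2). In this list, 2 were lower with no filter and 4 with quantile normalization. With the mean over probes, 2 were lower and 1 was higher.

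In the list of TAA and YUC genes of IAA synthesis, 7 of 11 tested rose, 1 fell and 3 did not pass, with a median of 0.19 that turned to -0.22 with normexp. Normexp left 1 of these genes higher and 5 lower, the local background setting left 4 higher and 1 lower, and without ced2 replicate 1 the fit called 6 higher and 3 lower. YUC5 rose by 2.00 (1.03 with the local background subtracted and 0.14 with normexp). YUC3 rose by 1.05 (0.51 and -0.22 under those settings) and TAR2 by 0.80 (0.74 and 0.65). The YUC probes were dim. In the transport list, 10 of 13 tested rose, 2 fell and 1 did not pass, with a median of 0.63 (8 higher, 4 lower and a median of 0.27 with normexp). The share of all genes called higher was 42.4%. The uptake carriers LAX3 and LAX2 rose by 1.82 and 1.46 (adjusted p = 0.00016 and 0.000168). PIN5, a carrier of the endoplasmic reticulum, was too dim in the WT files for a measured fold. In the processed signal it was at least 3.81-fold higher in the ced2 files. Its log2 difference was 0.53 with the local background subtracted and -0.71 with normexp. PIN5 is among the 10 called higher, but it passed the filter only through the ced2 files, so no adjusted p is given. Every such bound is the mean of the brighter group over the floor of the dimmer one, where an array's floor is the faintest signal that the scanner's flag still passed, or the gene's own signal if that was larger.

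Against 42.4% of all genes called higher, all 7 genes listed as auxin conjugate hydrolases were called higher, with a median of 0.60. Some enzymes of this family free IAA from amino acid conjugates, the reverse of the GH3 reaction. Whether each of the 7 does so was not examined here. ILL6, IAR3 and ILL5 rose by 1.07, 1.02 and 0.95 (adjusted p between 0.000215 and 0.000409). Of 3 genes of IAA oxidation and methylation all 3 were called higher: the oxidase gene DAO2 rose by 1.36, IAMT1 by 0.18 and DAO1 by 0.12, and DAO1 turned to -0.11 with quantile normalization and to -0.26 with normexp. Under each of these settings 1 of the 3 was called higher and 1 lower. Of 7 GH3 genes outside the 6 members, 4 rose, 2 fell and 1 did not pass, with a median of 0.54 that turned to -0.21 with normexp (3 higher and 3 lower). JAR1, which conjugates jasmonate, rose by 0.81, GH3.10 rose by 0.66, and PBS3, an enzyme of salicylate synthesis, fell by 1.06.

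Among further auxin-responsive genes, the SAUR list (small auxin up RNAs, by symbol in the RefSeq table) had 74 genes on the array and 56 tested. Of these, 33 rose, 12 fell and 11 did not pass, and the median of 0.56 turned to -0.34 with normexp, which left 14 higher and 28 lower. Over all genes 42.4% were called higher and 35.6% lower. Of the 56 SAUR genes tested, 6 had passed the filter through 1 group only. SAUR25, with WT signals not well above background, was at least 8.82-fold higher in the processed signal, but its log2 difference was 1.17 with the local background subtracted and 0.06 with normexp. SAUR56 rose by 2.37 (1.45 and 0.66 under those settings). SAUR20 was higher by 2.23 in the processed signal (0.59 and -0.50), but only 1 of its WT signals was well above background. Like SAUR25, it passed the filter only through the ced2 files, so its size is not a measured fold and no adjusted p is given. Near copies among the SAUR genes may share hybridization. Of the LBD and HAT2 list, 4 of 5 rose and 1 did not pass, while with normexp 2 were higher and 2 lower. LBD29, which acts below ARF7 and ARF19 in lateral roots, was at least 2.83-fold higher in the processed signal. Its log2 difference was 0.33 with the local background subtracted and -0.88 with normexp. Its WT signals were not well above background, so it passed the filter only through the ced2 files and no adjusted p is given. LBD16 rose by 0.83 and LBD33 by 0.51.

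**Figure D5:**
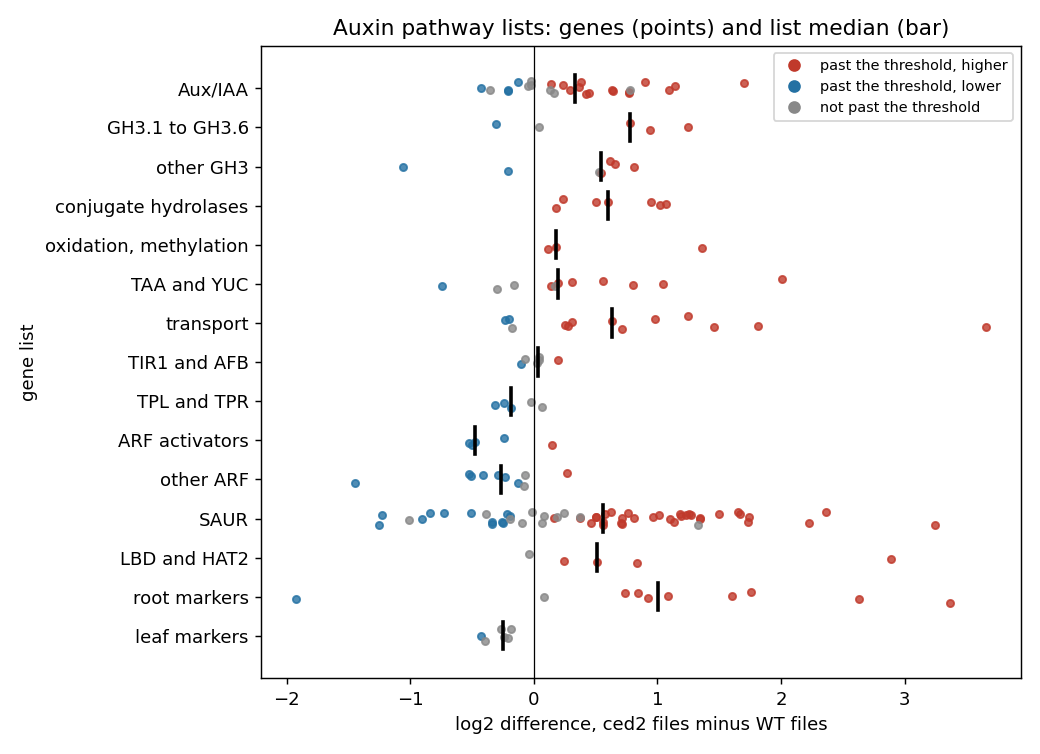
Log2 difference (ced2 files minus WT files, horizontal axis) of each tested gene of the auxin lists and of the root and leaf marker lists (points; red called higher, blue called lower, grey not past the threshold) with the median of each list as a black bar. Points are scattered vertically for legibility; the ARF medians lie at -0.48 and -0.26 and the transport and hydrolase medians at 0.63 and 0.60.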

How the data were processed

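The 4 scanner files hold an intensity per spot (the processed signal) made by Agilent Feature Extraction 10.7.1.1, per the submitters' processing notes and the file headers: background-subtracted and spatially detrended, and not normalized between arrays. The deposited files also give median pixel intensity for spots and for the local background around them, and flags of 0 or 1 (another kind of value) that mark detected spots. The authors' value table holds log2 values whose scaling is not given in the sources used here; it matched log2 processed signals minus the array's 75th percentile, centred per probe on the median of the 4 arrays, with column medians of 0.08, -0.03, 0.01 and -0.03.

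After removal of control spots and outlier flags, 70 of 43603 probes had no usable value. Probes were matched by unversioned accession to a RefSeq table of TAIR10.1 (34236 with a gene, 9297 without), which served only to name and order genes, since the array header gives an older build. The probe with the highest mean signal stood for a gene. Groups were compared with limma 3.58.1 (R 4.3.3, lmFit, eBayes, two-sided), with 2 residual and 1.49 prior degrees of freedom. An adjusted p is from this fit unless another setting is named with it, and then from limma rerun under that setting. Only the main fit was tested on simulated data. The arrays shared 1 slide and scan, with WT at positions 1 and 2 and ced2 at 4 and 3; position on the slide and genotype cannot be told apart. Members and lists were chosen with earlier results of these data known. All members may be named; by rule, values on every array are given for called members that differ by at least 1 on the log2 scale, members not well above background on both arrays of a group, the GH3 genes and close paralogs of these. Array values of further members, and the names ARF5 and NRT2.1, were chosen after their values were seen. Up to 3 called genes with the largest difference are named per pathway list and up to 2 per marker list. Alternatives were quantile normalization, normexp with an offset of 50 (on median intensities), no filter, a filter on all 4 arrays, the mean over probes, an intensity trend, the replicate number as a block, an adjusted p of 0.01, the authors' value table and leaving out each array; subtraction of the local background with an offset of 50 was chosen after seeing the data. Same-numbered replicates deviated from their group means with a correlation of 0.0473 across all genes tested and of 0.6193 across the 31 members. With 2 numbers, and no label that ties a number to a shared batch, they were not taken as pairs. With 1 array left out, the lone array of its group is assumed to vary like the other group. No sequences of the members were used here.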

Additional observations from a re-analysis of the deposited data

How the results depend on the processing

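Precision is limited by 2 arrays per group and, for dim probes, by the background. With normexp the median difference moved to 0.054 (Aux/IAA), 0.0671 (GH3) and -0.14 (all genes), 7 Aux/IAA and 2 GH3 genes were called lower, and 5696 of all genes were called higher. Reversed with it were GH3.1 (-0.89), IAA20 (-0.93), IAA26 (0.0186), IAA29 (-0.77), IAA31 (-0.66), IAA33 (-0.0888), IAA6 (-0.23) and the medians of the TAA and YUC (-0.22), other GH3 (-0.21) and SAUR (-0.34) lists. The local background setting gave 0.22 (Aux/IAA), 0.19 (GH3) and -0.0029 (all genes), and IAA29 at -0.0517. Quantile normalization gave 0.22 and 0.64, 2 Aux/IAA genes lower, IAA26 at 0.0117, IAA28 at 0.0111, IAA29 at -0.0819 and the leaf marker median at 0.10. The mean over probes gave IAA13 at 0.31 and IAA26 at 0.0257, and no filter gave a GH3 median of 0.55. The value table's labels gave 4 Aux/IAA genes higher and 15 lower, 1 GH3 gene higher and 3 lower, and medians of -0.33, -0.78 and -0.0466 (all genes).

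Leaving out 1 array gave medians of 0.31 to 0.35 (Aux/IAA) and 0.73 to 0.83 (GH3), 13 to 15 Aux/IAA genes higher and 2 to 5 lower, with 2 lower without either ced2 array. GH3.5 (-0.0049 to 0.0856) and IAA28 (-0.0612 to 0.0222) turned without WT replicate 1, IAA29 (-0.0154 to 0.2837) without ced2 replicate 1, and the receptor median (-0.0215 to 0.0549) without WT replicate 1 or ced2 replicate 2. With the replicate block, which pairs arrays by number alone, the medians stayed at 0.33 and 0.78; 2 members lost their call (IAA18 and IAA20) and 3 gained one (IAA10, IAA29 and IAA31). Except where a value shows it, the cause was not tested.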
